A study of Mus musculus with 6 samples.

Results

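Mature fragments of the nuclear isoleucine tRNAs were taken as every small RNA whose annotations all name mature-tRNA-Ile-AAT or mature-tRNA-Ile-TAT, which leaves out precursors and sequences shared with another tRNA. This rule selected 575 of the 38798 distinct sequences in the table, 354 of tRNA-Ile-AAT and 221 of tRNA-Ile-TAT. They came from primary wild-type smooth muscle cells of the mouse pulmonary artery, which contract to narrow the vessels of the lung. The hypoxia group was kept at 3% O2 for 24 hours, the normoxia group was grown in standard culture, and each held 3 biological replicates. Libraries were prepared by Pandora-seq, in which enzymes first remove RNA modifications that block adapter ligation or reverse transcription. The table held tRNA fragments only, so that the labelled cell type could not be checked against marker genes.

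Transfer RNAs bring amino acids to the ribosome, and the isoleucine tRNAs of the cytosol differ by the codons they read. tRNA-Ile-AAT has an adenosine as the first base of its anticodon, which the ADAT2 and ADAT3 deaminase converts to inosine so that one tRNA reads several isoleucine codons. tRNA-Ile-TAT reads the remaining AUA codon and is made from precursors whose intron is spliced out beside the anticodon. Both receive a CCA tail after transcription, and both have a T arm near the 3′ end, whose loop folds against the D loop and holds a base often methylated to 1-methyladenosine. Small RNAs cut from mature tRNAs accumulate in many stress settings, and hypoxia is the stress applied here.

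The 2 tRNAs were assembled from their own fragments, so that each fragment could be placed by position, counted from 1 at the 5′ end of the tRNA. Both assembled tRNAs were 77 nt long with the CCA tail, of which 74 bases are encoded, and had the anticodon at positions 35 to 37. tRNA-Ile-TAT is shown because the fragments that differed most are stretches of it, with the anticodon in capitals.
tRNA-Ile-TAT: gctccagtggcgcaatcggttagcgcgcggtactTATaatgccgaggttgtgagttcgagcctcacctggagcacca
Of the AAT sequences, 327 matched exactly and 27 with 1 mismatch. Of the TAT sequences, 149 matched exactly, 69 had 1 mismatch and 3 with 7 counts in all could not be placed. RefSeq (GRCm38.p6) lists 15 tRNA-Ile-AAT genes on 8 chromosomes, 7 of them on chromosome 13. It lists 1 tRNA-Ile-TAT gene, n-TItat14 at chr13:21896938-21897031, whose 94 bp are 20 more than the 74 encoded bases of the mature tRNA. Such a length was not particular to it: of the tRNA-Ile-AAT genes, 3 have 93 to 96 bp and 11 have 74 bp. Gene copies can share their mature sequence, and no fragment was assigned to a single gene.

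The most abundant end pieces of tRNA-Ile-TAT and the set of its fragments that differed most between the groups are printed next. The latter start at different bases after the anticodon and share their 3′ end at position 64, where the last 3 bases are in capitals.
TAT 1-19, the most abundant 5′ end: gctccagtggcgcaatcgg
TAT 61-77, the most abundant CCA end: cctcacctggagcacca
TAT 38-64, the most abundant internal fragment: aatgccgaggttgtgagttcgagcCTC
TAT 39-64: atgccgaggttgtgagttcgagcCTC
TAT 44-64: gaggttgtgagttcgagcCTC
TAT 49-64: tgtgagttcgagcCTC
Another end, at position 58, is the last base of the T-loop TTCG (positions 55 to 58, in capitals), directly before the adenosine at position 59 in both tRNAs.
TAT 44-58: gaggttgtgagTTCG

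Of the 575 sequences, 525 were internal, 29 began at the 5′ end, 12 ended in CCA and 9 ended at the 3′ end without CCA. A count was seen in all 6 libraries for 93 sequences and in 1 library alone for 221. The hypoxia libraries held 6709, 13451 and 10520 counts of them in replicates 1, 2 and 3, and the normoxia libraries 4554, 14574 and 12549, out of totals of 330787 to 2563749. Levels are given as CPM, the count scaled to a library total of 1000000. The libraries numbered 1 were the shallowest of each group and stood apart from the other four in both groups: tRNA-Ile took 1.31% and 1.38% of their counts against 0.525 to 0.770%. Across the table, 5′-end fragments made up 36.6% and 34.6% of counts in the libraries numbered 1 and 53.0 to 58.6% elsewhere, so results below are also given within replicates 2 and 3. Pairs below are libraries that share a replicate number, and the design text names no pairing. With 3 libraries against 3, the two-sided exact permutation test used for sums and shares cannot go below p = 0.1.

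Summed tRNA-Ile-TAT fragments had a lower mean in hypoxia than in normoxia. Since the exact test cannot go below p = 0.1, it could not call that difference or the one of tRNA-Ile-AAT at 0.05. Summed TAT fragments had 3418, 2039 and 2817 CPM in the 3 hypoxia libraries and 3298, 3483 and 4646 CPM in the 3 normoxia libraries. The groups overlapped through replicate 1, whose pair ratio was 1.04, against 0.585 and 0.606 in replicates 2 and 3. The means were 2758 ± 691.3 and 3809 ± 730.8 CPM (SD, n = 3 per group; exact p = 0.200). Summed AAT fragments had 9723, 3207 and 3321 CPM in hypoxia and 10469, 3088 and 3054 CPM in normoxia (exact p = 1.0). The libraries numbered 1 were about as high in both groups, and the other four lay between 3054 and 3321 CPM. The ratio of TAT to AAT counts was 0.352, 0.636 and 0.848 in hypoxia and 0.315, 1.13 and 1.52 in normoxia. On the log2 scale this direct comparison of both tRNAs did not separate the groups (exact p = 0.6, also 0.6 after adjustment over 5 ratios).

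By fragment class, TAT internal and CCA-end pieces were lower in each of the 3 pairs, and TAT 5′ ends had no common direction. TAT internal fragments had 2809, 651.4 and 960.9 CPM in hypoxia and 2836, 1507 and 2577 CPM in normoxia. They were lower in 3 of 3 pairs, but the pair of replicate 1 differed by almost nothing (ratio 0.991) where the others had 0.432 and 0.373. In edgeR's quasi-likelihood fit of 276 tRNA-by-class groups the log2 change was -0.84 (SE 0.44, adjusted p = 0.999), and with the replicate number as a block it was -0.86 (SE 0.30, adjusted p = 0.372). None of the 6 tRNA-Ile classes tested passed in either fit, and neither did any of the 276 groups (0%). At an unadjusted p under 0.05, 0 of the 6 passed with groups alone (0.362% of all groups lower and 0.725% higher) and 1, TAT internal, was lower with the block, where 5.07% of all groups were lower and 5.80% higher. With replicates 2 and 3 alone TAT internal fragments fell (log2 -1.31, SE 0.27, edgeR adjusted p = 0.0235), 1 of 10 lower groups among 269 (3.72%), and 0 of the 6 tRNA-Ile classes rose, where 1.12% of all groups did.

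TAT fragments with the CCA tail had 68.6, 54.2 and 52.5 CPM in hypoxia and 87.7, 75.3 and 111.7 CPM in normoxia. All 3 hypoxia libraries lay below all 3 normoxia libraries, with means of 58.4 ± 8.81 and 91.5 ± 18.5 CPM (exact p = 0.1), on 29 to 182 counts a library; in the class fit this group did not pass (log2 -0.69, SE 0.59, edgeR adjusted p = 0.999). TAT 5′ ends had 536.7, 1334 and 1802 CPM against 362.8, 1900 and 1958 CPM, so that replicate 1 was higher in hypoxia and the others lower. For AAT, 5′ ends had 848.2, 1652 and 1739 CPM in hypoxia and 643.9, 1500 and 1339 CPM in normoxia, higher in each of the 3 pairs (ratios 1.32, 1.10 and 1.30). The class fit gave log2 0.30 (SE 0.78) with groups alone and 0.34 (SE 0.15, edgeR adjusted p = 0.464) with the block, and the groups overlapped. AAT CCA ends had 227.2, 367.4 and 389.7 CPM against 184.4, 463.9 and 611.1 CPM, with no common direction over the pairs. AAT internal fragments had 8644, 1185 and 1192 CPM in hypoxia and 9629, 1121 and 1103 CPM in normoxia, a gap of the libraries numbered 1 from the rest that was far larger than any gap between the groups.

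**Figure D1:**
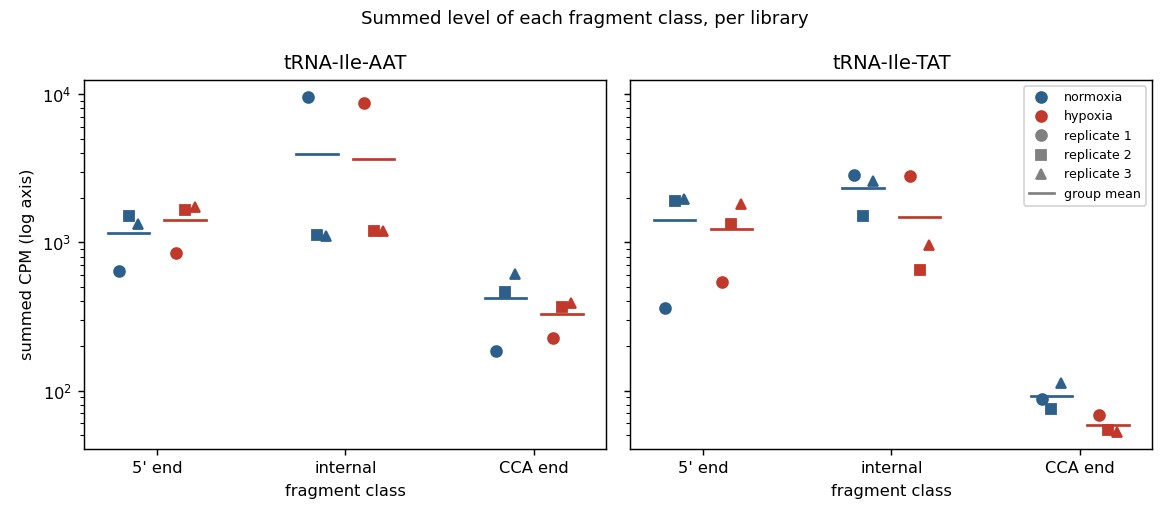
Summed CPM (log axis) of 5′-end, internal and CCA-end fragments of each tRNA-Ile. Points are libraries, marker shapes are replicate numbers and bars are group means; the internal fragments of the replicate 1 libraries (circles) sit highest, and for TAT CCA ends the hypoxia points (52.5 to 68.6 CPM) lie under the normoxia points (75.3 to 111.7 CPM).

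Fragments that end at the 3′ end without CCA were almost absent. AAT had 4 such sequences, with 3.92, 2.34 and 0 CPM in hypoxia and 12.1, 3.16 and 0.614 CPM in normoxia. TAT had 5, with 2, 0 and 2 counts in hypoxia and 4, 0 and 0 counts in normoxia. The most abundant of them, AAT 60-74 and TAT 57-74, had at most 7 and 2 counts in any library. These levels are at or near those of 3 counts, which equal 1.17 to 9.07 CPM depending on the library, and no difference was detectable at this depth.

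TAT internal fragments were then read by the position of their 3′ end. Fragments of TAT that end at position 64 made up 15.9, 19.9 and 21.5% of TAT counts in hypoxia and 21.4, 33.1 and 48.1% in normoxia. They had 544.5, 405.3 and 605.6 CPM in hypoxia and 704.4, 1154 and 2234 CPM in normoxia. All 3 hypoxia libraries lay below all 3 normoxia libraries, with means of 518.5 ± 102.7 and 1364 ± 785.9 CPM and pair ratios of 0.773, 0.351 and 0.271. This position was chosen after its values were seen, so that the difference is a description with no test. Without normoxia replicate 3, the highest library, the mean difference shrank from -845.4 to -410.6 CPM.

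TAT internal fragments with any other end had 2264, 246.1 and 355.3 CPM in hypoxia and 2131, 353.5 and 343.0 CPM in normoxia. These overlapped fully, and their pair ratios were 1.06, 0.696 and 1.04. TAT fragments that end at 58 had 1130, 110.8 and 142.4 CPM in hypoxia and 1158, 158.3 and 159.5 CPM in normoxia. They showed the high level of the libraries numbered 1 and pair ratios of 0.976, 0.70 and 0.892, nearer to 1 than those of the fragments ending at 64. One of them, TAT 44-58, had 333.0, 12.1 and 23.9 CPM against 359.7, 39.2 and 62.6 CPM (log2 -0.37, SE 1.16; with the block -1.04, SE 0.41, edgeR adjusted p = 0.629). It was lower in 3 of 3 pairs with overlap between the groups. Of the 8 end positions that each held at least 1% of TAT CPM added over the 6 libraries, 2 had groups that did not overlap. These were 64, chosen after its values were seen, and 77, the CCA end. Among all tested sequences, 2.51% were lower and 2.32% higher without overlap, and no such share was computed for end positions of other tRNAs.

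**Figure D2:**
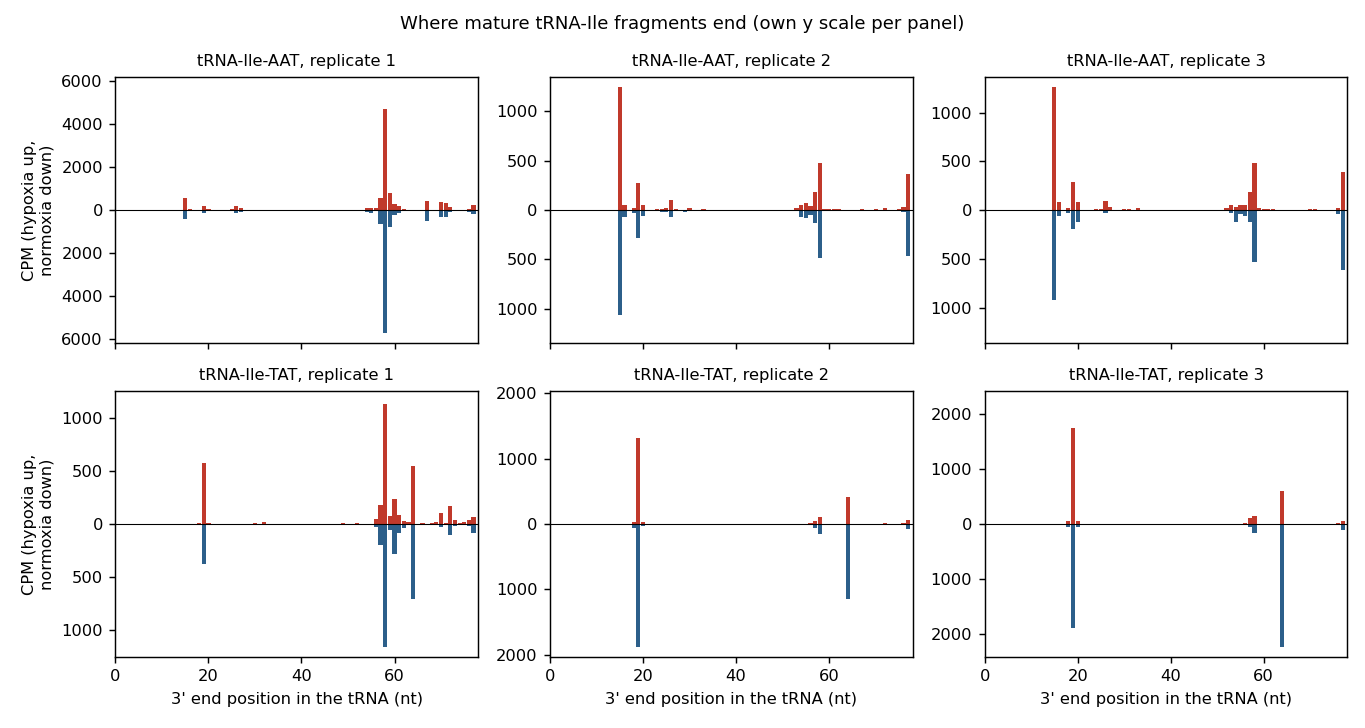
CPM of all fragments by the position of their 3′ end, hypoxia drawn upward and normoxia downward, one column of panels for each replicate number and each panel with its own y scale. In TAT the bars at position 64 are longer downward in every panel (704.4 against 544.5, 1154 against 405.3 and 2234 against 605.6 CPM), and in replicate 1 the bars at position 58 are the longest for both tRNAs.

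The most abundant of the fragments ending at 64, TAT 38-64, starts at the base right after the anticodon and had 113.6, 58.9 and 106.8 CPM in hypoxia and 253.9, 286.3 and 428.9 CPM in normoxia. It rested on 58, 151 and 183 counts against 84, 635 and 699, and the groups did not overlap. Its log2 change was -1.89 (SE 0.60, edgeR adjusted p = 1.0) with groups alone, and with the replicate block it fell by 1.85 on the log2 scale (SE 0.36, edgeR adjusted p = 0.0184). With the block and pair 2 left out it did not pass, and with pair 3 left out it did (log2 -1.74, adjusted p = 0.00743). With replicates 2 and 3 alone it did not pass (log2 -2.15, edgeR adjusted p = 0.0982). TAT 39-64, 1 base shorter, had 21.5, 23.0 and 43.2 CPM against 51.4, 83.9 and 169.4 CPM. It too had no overlap, at log2 -1.86 (SE 0.80) with groups alone and -1.77 (SE 0.43, edgeR adjusted p = 0.113) with the block.

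Shorter fragments with the same 3′ end differed in the same direction. TAT 44-64 had 21.5, 5.07 and 15.8 CPM in hypoxia and 36.3, 37.9 and 36.8 CPM in normoxia (log2 -1.51, SE 0.71). TAT 49-64, the shortest of the named ones, had 119.5, 56.9 and 83.4 CPM against 127.0, 138.4 and 408.0 CPM (log2 -1.56, SE 0.72). Both were without overlap, though replicate 1 of TAT 49-64 was nearly level. Neither passed adjustment with the block (edgeR adjusted p = 0.525 and 0.388). Without normoxia replicate 3 the log2 change was -0.60 for TAT 49-64 and -1.09 for TAT 39-64. Summed by start, fragments starting at 38 to 43 had 237.0, 173.6 and 292.3 CPM in hypoxia and 387.0, 633.0 and 1017 CPM in normoxia. Those starting at 44 to 50 had 307.5, 231.7 and 313.3 CPM against 317.4, 520.7 and 1216 CPM, again without overlap and with a replicate 1 pair that was almost even (ratio 0.969).

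The filter on low counts kept 18 fragments ending at 64, and their log2 changes ran from -1.89 to -0.11 with a median of -1.37, against a median of 0.02 over all 6452 sequences tested. All 18 were below 0, where 48.7% of all tested sequences were. The groups did not overlap for 6 of the 18, all lower, where 2.51% of all tested sequences did so. In 3 of 3 pairs 10 of the 18 were lower, against 13.4% of all tested sequences. Since these fragments are overlapping stretches of one tRNA, and one read can end there with any start, they are not separate observations. The end at 64 was chosen after its values were seen, so that these counts restate that choice. The filter can also keep a fragment through the group in which it is higher. With replicates 2 and 3 alone, 22 such fragments were tested, with a median of -1.61 beside 0.01 over all 6498 sequences tested. There too the filter can keep a fragment through its normoxia counts alone, so that the direction of these fragments is no added support.

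Fragments of TAT came in 2 forms that differ at position 60. In 69 sequences with 2227 counts the base was the G60T form, which was 23.3% of the counts that cover this position. The pair below is the stretch from 49 to 64, with the differing base in capitals.
TAT 49-64, G at 60: tgtgagttcgaGcctc
TAT 49-64, G60T: tgtgagttcgaTcctc
Whether the G60T form is another gene copy or a misread base cannot be told apart from these sequences. Among fragments ending at 64 the G60 form had 521.0, 305.8 and 462.1 CPM in hypoxia and 668.1, 942.8 and 1705 CPM in normoxia. The G60T form had 23.5, 99.5 and 143.5 CPM against 36.3, 211.0 and 528.3 CPM. Without normoxia replicate 3 the mean difference of the G60T form shrank from -169.7 to -34.8 CPM, and that of the G60 form from -675.7 to -375.8 CPM. Both were lower in each of the 3 pairs, the G60 form without and the G60T form with overlap between the groups. G60T made up 4.32, 24.5 and 23.7% of the fragments ending at 64 in hypoxia and 5.15, 18.3 and 23.7% in normoxia, so that its share was low in the libraries numbered 1 of both groups and showed no common direction.

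**Figure D3:**
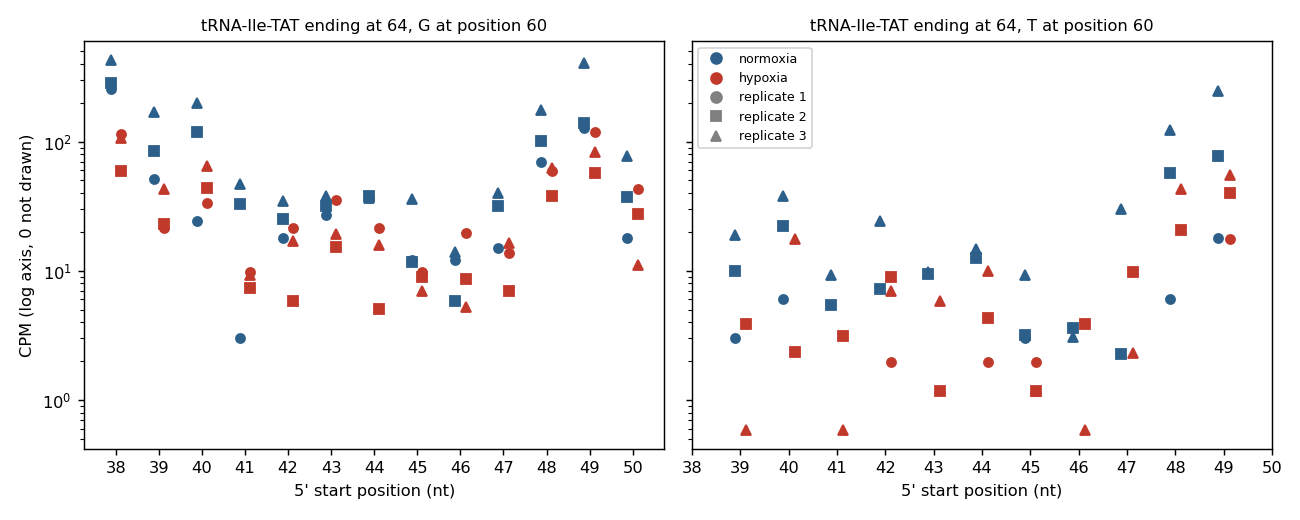
CPM (log axis) of each tRNA-Ile-TAT fragment that ends at position 64, by its start position, for the form with G (left) and with T (right) at position 60; points are libraries and values of 0 are not drawn. Normoxia points (blue) of replicates 2 and 3 lie above the hypoxia points of the same number for 12 of 13 starts on the left and 8 of 11 on the right.

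Of the TAT fragments ending at 64, those starting at 38 to 43 and ending at 64 are 22 to 27 nt long. TAT fragments of 21 to 29 nt had 378.0, 196.6 and 332.0 CPM in hypoxia and 547.2, 705.2 and 1086 CPM in normoxia. All hypoxia libraries lay below all normoxia libraries (302.2 ± 94.3 against 779.5 ± 277.0 CPM, SD, n = 3 per group; exact p = 0.1). As a share of TAT counts they made up 11.1, 9.64 and 11.8% in hypoxia and 16.6, 20.2 and 23.4% in normoxia. This share did not overlap between the groups and was lower in replicate 1 as well, in spite of the different make-up of those libraries (10.8 ± 1.09% against 20.1 ± 3.40%; exact p = 0.1, adjusted over 14 shares 0.7). Fragments of 15 to 20 nt made up the complement, 88.3, 90.3 and 88.2% against 83.0, 79.7 and 76.6%. For AAT, fragments of 21 to 29 nt made up 46.5, 9.85 and 10.1% in hypoxia and 50.5, 11.3 and 14% in normoxia. They were lower in each pair, but the groups overlapped (exact p = 0.500).

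**Figure D4:**
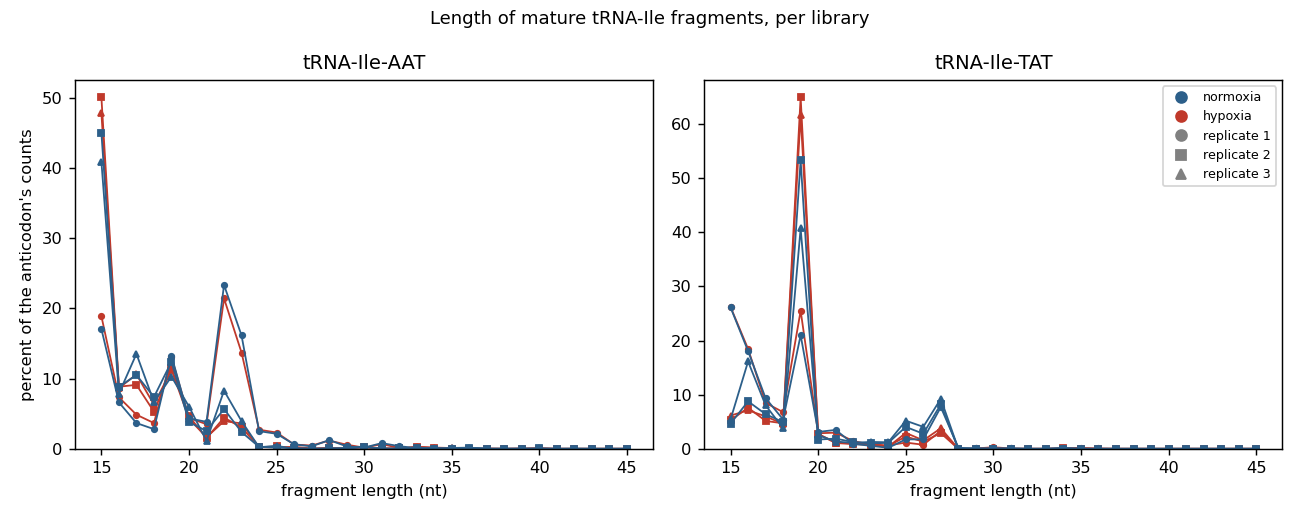
Length of the fragments of each tRNA-Ile as a percent of that tRNA's counts, one line for each library. For TAT the 3 normoxia lines (blue) lie above the 3 hypoxia lines at 27 nt, the length of TAT 38-64. For AAT the replicate 1 libraries (circles) are highest at 22 nt and next highest at 15 nt.

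The main 5′ fragment of TAT, TAT 1-19, had no common direction over the pairs, at 526.9, 1282 and 1702 CPM in hypoxia and 356.7, 1814 and 1841 CPM in normoxia (log2 -0.26, SE 0.89; with the block -0.04, SE 0.29, edgeR adjusted p = 0.989). Relative to it, fragments ending at 64 had ratios of 1.03, 0.316 and 0.356 in hypoxia and 1.97, 0.636 and 1.21 in normoxia, lower in each pair but overlapping between the groups. TAT 61-77, which starts 3 bases before the end at 64 and runs into the CCA tail, had 37.2, 24.6 and 26.3 CPM against 60.5, 29.3 and 38 CPM (log2 -0.51, SE 0.57). It was lower in 3 of 3 pairs, and its groups overlapped. Long TAT fragments were rare: TAT 40-73, the most abundant of at least 30 nt, had at most 3 counts in any library.

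AAT fragments showed mainly the difference between libraries numbered 1 and the rest. Fragments ending at position 58 had 4683, 478.2 and 479.0 CPM in hypoxia and 5723, 486.9 and 533.8 CPM in normoxia. They took 48.2% and 54.7% of AAT counts in the libraries numbered 1 and 14.4 to 17.5% in the others. AAT 37-58 had 1900, 127.9 and 116.1 CPM against 2264, 169.1 and 244.2 CPM (log2 -0.31, SE 1.16; with the block -0.58, SE 0.30, edgeR adjusted p = 0.807). It was lower in 3 of 3 pairs, a difference small beside the gap between the libraries numbered 1 and the others. AAT 36-58 had 893.2, 90.9 and 100.9 CPM against 1230, 66.7 and 112.9 CPM, and AAT 40-58 had 975.5, 73.7 and 76.4 CPM against 1152, 71.2 and 73.6 CPM, neither with a common direction over the pairs. AAT fragments that run past position 58 and stop before the last base had 2691, 121.7 and 105.6 CPM in hypoxia and 2603, 100.5 and 86.5 CPM in normoxia. The cause of the high level at 58 in the libraries numbered 1 was not tested, and no modification was measured. AAT 37-67, the most abundant AAT fragment of at least 30 nt, had 58.8, 0 and 0 CPM against 81.6, 0 and 0.614 CPM and was seen almost only in those libraries.

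Among the AAT end pieces, AAT 1-15 had 579.8, 1244 and 1262 CPM in hypoxia and 405.1, 1065 and 921.6 CPM in normoxia. It was higher in 3 of 3 pairs, overlapped between the groups and did not pass (log2 0.33, SE 0.72; with the block 0.39, SE 0.28, edgeR adjusted p = 0.863). AAT 61-77 had 92.1, 167.3 and 218.8 CPM against 78.6, 225.9 and 325.8 CPM (log2 -0.47, SE 0.80), with replicate 1 higher and the others lower in hypoxia. The 5′ pieces of 30 nt or more, which reach toward the anticodon loop, had 3.92, 21.5 and 11.7 CPM against 9.07, 14.4 and 9.82 CPM. Fragments that span the whole anticodon were rare, 133 counts (0.389%) in AAT and 10 counts (0.0355%) in TAT. Another base difference, G27A, was seen in 20 AAT sequences with 184 counts, 27.9% of the counts that cover position 27, on 8 to 55 counts a library.

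The 4 higher fragments with the smallest unadjusted p all came from AAT and the 4 lower ones all from TAT, the latter being those ending at 64 named above. One of the higher ones lies in the D arm, and the others start after the anticodon and end within the T-loop TTCG, 1 or 3 bases before position 58. AAT 12-26 had 152.8, 71.0 and 67.7 CPM in hypoxia and 133.0, 38.8 and 14.7 CPM in normoxia (log2 0.80, SE 0.73; with the block 1.06, SE 0.44, edgeR adjusted p = 0.682). AAT 41-55 had 47.0, 41.7 and 29.2 CPM against 15.1, 23.4 and 12.9 CPM (log2 1.10, SE 0.64; with the block 1.14, SE 0.55, edgeR adjusted p = 0.770). Its groups did not overlap, but it rested on 5 to 107 counts a library. AAT 41-57 had 60.7, 34.3 and 38.5 CPM against 36.3, 12.6 and 30.1 CPM, and AAT 42-57 had 60.7, 46.8 and 50.2 CPM against 54.4, 21.2 and 20.2 CPM. Both were higher in 3 of 3 pairs with overlap between the groups. Over a wider range of starts (40 to 45) and ends (54 to 57), summed AAT fragments had 615.1, 266.4 and 266.1 CPM in hypoxia and 677.2, 223.6 and 256.5 CPM in normoxia, with no common direction over the pairs.

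Over all members, the filter kept 89 sequences (49 AAT and 40 TAT) with 91.1% of their counts. The 486 left out had up to 102.4 CPM on average, in AAT 37-59, whose 291.9 and 314.4 CPM in the libraries numbered 1 stood beside at most 3.61 CPM elsewhere. With groups alone, edgeR called 0 of the 89, and 0 of all 6452 sequences tested (0%). At an unadjusted p under 0.05, 2 of the 89 were lower, where 0.418% of all tested were, and 0 were higher, where 0.279% of all tested were; DESeq2 and limma called 0 after adjustment. Without it DESeq2 had 5 lower and 0 higher, where 0.775% and 0.527% of all tested were, and limma had 3 lower and 0 higher, where 0.821% and 0.868% were. With the replicate block 1 of the 89 fell, TAT 38-64, where 0.0775% of all tested fell, and 13 were lower and 2 higher without adjustment, where 2.98% and 3.41% of all tested were. Of these 13, 11 end at position 64 of TAT.

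The median log2 change was -0.58 over the 40 TAT sequences, 33 of them below 0, and -0.04 over the 49 AAT sequences, 25 of them below 0, beside 0.02 over all tested. With the block the medians were -0.58 and 0.12, and with replicates 2 and 3 alone -1.18 and 0.08. Of the 40 TAT sequences, 18 end at position 64, all of them below 0 with groups alone (median -1.37). For 6 TAT and 0 AAT sequences all hypoxia libraries lay below all normoxia libraries, and for 0 TAT and 2 AAT sequences they lay above (2.51% and 2.32% of all tested). The 2 AAT sequences were AAT 41-55 and AAT 37-53, the latter named after its values were seen, with 7.84, 11.3 and 13.4 CPM against 0, 5.86 and 4.91 CPM.

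**Figure D5:**
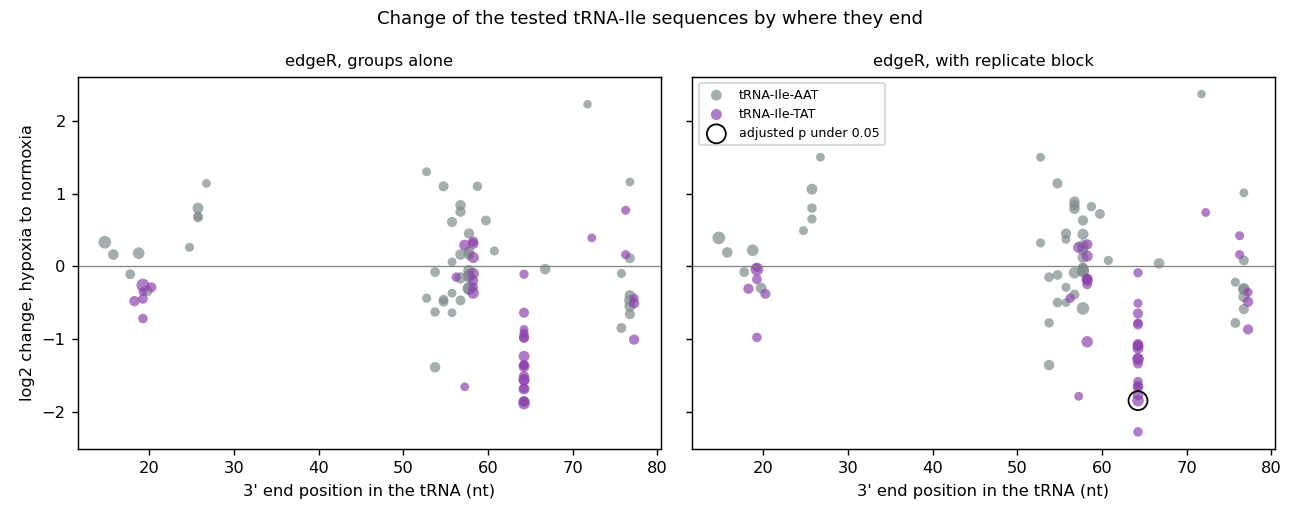
Log2 change from normoxia to hypoxia of the 89 tested sequences (points, larger for a higher mean CPM) by 3′ end position, from edgeR with groups alone (left) and with the replicate block (right). The 18 TAT points at position 64 all lie below 0, the ringed one is TAT 38-64 (log2 -1.85, adjusted p = 0.0184), and the AAT points lie on both sides of 0.

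Lists of tRNAs of the same kinds were read beside the tRNA-Ile values. Over the 8 families whose anticodon begins with an adenosine read as inosine, tRNA-Ile-AAT among them, 20 class groups were tested and 0 were called. Their median log2 change was 0.15 beside 0.06 over all 276 groups. Over the 4 families with intron-bearing genes (Arg-TCT, Ile-TAT, Leu-CAA and Tyr-GTA), 13 were tested and 0 called, with a median of -0.02. With replicates 2 and 3 alone TAT internal fragments were the 1 called among these 13. Internal fragments of tRNA-Tyr-GTA, another tRNA spliced from an intron-bearing precursor, had 11690, 2902 and 3162 CPM in hypoxia and 11318, 3322 and 3411 CPM in normoxia (log2 -0.02, SE 0.40), with pair directions that differed. Those of Arg-TCT and Leu-CAA had log2 changes of 0.20 (SE 0.78) and 0.33 (SE 0.33). Of tRNA-Val-AAC, also read with inosine, 5′ ends had 209.6, 715.7 and 622.0 CPM against 187.4, 469.8 and 406.2 CPM, higher in 3 of 3 pairs like the AAT 5′ ends (with the block log2 0.51, SE 0.20, edgeR adjusted p = 0.425). The difference of the TAT internal fragments from those of another family was not tested, except against AAT, where the ratio of the internal classes gave an exact p of 0.500.

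By summed level over the 6 libraries, the families most like AAT among 50 nuclear ones were Arg-ACG, Pro-TGG and Met-CAT, with mean absolute differences of 0.06, 0.12 and 0.12 log2 units after centring. Those most like TAT were less close, Tyr-GTA at 0.25, Asn-GTT at 0.28 and Trp-CCA at 0.29. The difference between TAT and AAT themselves was 0.73, which placed TAT 34th in the order around AAT. Like AAT, the 3 families nearest to it were highest in the libraries numbered 1.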

How the data were processed

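Small RNA of 3 hypoxia and 3 normoxia cultures was sequenced by Pandora-seq, per the labels' protocols. The authors deposited raw counts of distinct tRNA fragments of 15 to 45 nt in one table, with the tRNAs and fragment class of each sequence in its annotation. The submitters' processing notes name mm10. Aligner, annotation tool and tRNA reference: not given in the sources used here. Sample titles gave the group and the replicate number of each library. The design text calls the replicates biological, and the p-values measure the spread between these cultures.

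The members and lists were chosen with earlier results of these data known, and the end positions, start ranges, base at position 60 and ratios after their values were seen. Named sequences were, for each anticodon, the most abundant by mean CPM of each class and length range (15 to 20, 21 to 29, 30 to 45 nt), those past an adjusted p of 0.05, and the 4 with higher and 4 with lower levels in hypoxia of smallest unadjusted p at a mean of at least 10 CPM. Sequences beyond this rule (AAT 36-58, 40-58, 37-53 and 37-59, TAT 44-58 and the G60T forms) are also named. Each tRNA was assembled from its fragments by joining overlaps of at least 9 nt, taking the most counted next base, and fragments were placed with at most 1 mismatch. The sequences of tRNA-Ile-AAT and its fragments are not reported here. Gene lengths and locations came from RefSeq (GRCm38.p6, the assembly of mm10).

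CPM divides a count by the library's total in the table. Tests over the whole table were run in R 4.3.3 with edgeR 4.0.16, scaled by trimmed mean (TMM), filtered by filterByExpr, fitted by quasi-likelihood and adjusted by Benjamini-Hochberg. Class groups sum the counts of each set of tRNAs and class. The edgeR step was tested on simulated data. Two-sided exact permutation tests of sums and shares were run in Python 3.11.15 with SciPy 1.17.1; tables used pandas 2.3.3 and plots matplotlib 3.10.9. Libraries with the same number deviated together from their groups, with correlations of 0.81, 0.53 and 0.45 over 6452 sequences. The design text gives no pairing. Centring within each group lets the libraries numbered 1, which stood apart, raise the correlations of replicates 2 and 3 as well. Within replicates 2 and 3 alone the correlation was -0.03, which gives no sign of pairing between them. The numbers were still treated as pairs, and a fit with the replicate block is given where it changes a call. Alternatives were other scalings and filters, DESeq2 1.42.0, limma 3.58.1 (voom), the replicate number as a block, leaving out each library, sequences shared with other tRNAs or precursors added and, chosen after seeing the data, replicates 2 and 3 alone and the block with another scaling or a pair left out. Without molecular identifiers reads are not independent molecules, and counting error understates the error.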

Additional observations from a re-analysis of the deposited data

How the results depend on the processing

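The cause of the changes given here was not tested. The number of tRNA-Ile sequences called was 0 with groups alone, 1 with the replicate block, 1 with the block and DESeq2 size factors and 1 with the block and pair 3 left out; each time it was TAT 38-64 (log2 -1.85, -1.88 and -1.74). With each library left out the number was 0 for sequences and 0 for class groups. With replicates 2 and 3 alone the number of sequences called was 0. Class groups called numbered 1 with replicates 2 and 3 alone. The block and the pairing changed no other call. AAT internal fragments (log2 -0.02) turned to 0.02 with DESeq2 size factors, 0.01 without a filter, 0.02 with DESeq2, 0.08 with voom, 0.05 with the block, 0.12 with replicates 2 and 3 alone, 0.08 with the block and DESeq2 size factors and 0.05 with the block and pair 2 left out. TAT 5′ ends turned to 0.02 with the block and DESeq2 size factors and 0.28 with pair 2 left out, and TAT 1-19 to 0.26 with pair 2 and 0.02 with pair 3 left out. The summed AAT difference of -119.7 CPM became 12 with the trimmed-mean factor and 193.3 with replicates 2 and 3 alone. With those replicates, the AAT internal share differed by 0.216, AAT 30 to 45 nt by 0.121 and TAT 3′ ends without CCA by 0.0207 percentage points; with shared and precursor sequences added, TAT 30 to 45 nt differed by -0.0539. With each library left out, log2 changes ranged from -0.14 to 0.73 (AAT 5′ ends), -0.87 to 0.06 (AAT CCA ends), -0.89 to 0.99 (AAT internal), -0.78 to 0.26 (TAT 5′ ends), -0.09 to 0.72 (AAT 1-15), -2.30 to 1.21 (AAT 37-58), -0.94 to 0.10 (AAT 61-77) and -0.78 to 0.18 (TAT 1-19). Differences of summed CPM ranged from -2273 to 2346 (AAT), -1769 to 1370 (AAT ending at 58), -365.3 to 302.2 (TAT ending at 58) and -657.0 to 154.9 (TAT 1-19). Shares ranged, in percentage points, from -8.68 to 19.1 (AAT 5′ ends), -18.4 to 17.7 (AAT internal), -9.01 to 0.117 (AAT CCA ends), -9.78 to 15.5 (AAT 15 to 20 nt), -15.3 to 9.49 (AAT 21 to 29 nt), -0.232 to 0.283 (AAT 30 to 45 nt), -28.5 to 0.0468 (TAT internal), -0.131 to 0.0520 (TAT 3′ ends without CCA) and -0.111 to 0.233 (TAT 30 to 45 nt). TAT fragments ending at 64 stayed lower with each library left out (-1175 to -410.6 CPM), as did the 21 to 29 nt share of TAT (-11.0 to -7.59 percentage points). Depth limits the fragments without CCA and those of 30 nt or more, where 1 count equals 0.390 to 3.02 CPM.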

Other observations

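Sequences left out of the members because another tRNA shares them had the same end in 1 case: a sequence shared by tRNA-Ile-TAT and tRNA-Met-CAT that ends as the TAT fragments at 64 had 7.84, 4.68 and 14 CPM in hypoxia and 9.07, 39.2 and 58.3 CPM in normoxia. It was lower in each of the 3 pairs, and the groups overlapped.

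Position by position, TAT start sites were read in the same way as the ends. Of 17 start positions with at least 1% of TAT CPM added over the 6 libraries, 4 had groups that did not overlap. These were 38, 39, 48 and 49, all lower in hypoxia. For each of them, the fragment ending at 64 with G at 60 was itself without overlap. These starts share reads with that end and are not a further observation. Among all tested sequences, 2.51% were lower and 2.32% higher without overlap, and no such share was computed for start positions beyond tRNA-Ile. Fragments starting at 38, with all ends added, had 146.9, 71.8 and 120.8 CPM in hypoxia and 290.2, 296.7 and 439.3 CPM in normoxia. Most of this was TAT 38-64, at 113.6, 58.9 and 106.8 CPM in hypoxia and 253.9, 286.3 and 428.9 CPM in normoxia. TAT 38-58 overlapped between the groups, with no common direction over the pairs. Fragments starting at 43 had 515.2, 82.7 and 137.7 CPM against 495.8, 114.5 and 114.7 CPM. For AAT, by the same minimum, 0 of 15 start positions and 0 of 16 end positions had groups that did not overlap. Fragments of AAT that end at 54 had 88.1, 51.1 and 35.6 CPM in hypoxia and 90.7, 71.2 and 127.6 CPM in normoxia, and those that start at 41 had 221.3, 97.1 and 110.9 CPM against 154.2, 67.2 and 58.3 CPM. The former were lower and the latter higher in each of the 3 pairs, with overlap between the groups. These positions were read after their values were seen, with no test.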
